A study of Mus musculus with 8 samples.

Results

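The genes described here are Hmgcs1, Idi1, Fdps, Fdft1, Sqle, Lss, Insig1 and Srebf2, 8 of the 24421 genes listed for every sample. They were chosen by name as genes of cholesterol synthesis and its control. Of the 8, 6 encode enzymes of the pathway and the remaining pair, Insig1 and Srebf2, encode proteins that control it, so the set is wider than enzymes alone. The samples were islets of 8-week-old male C57BL/6J mice, with 4 samples from untreated control mice and 4 from mice whose pancreas had been reduced by 50% partial pancreatectomy (PPTx) 2 days before islet isolation. The labels name no transgene or drug for either group, and all mice were kept on standard chow. Each sample pooled islets of 1 to 3 mice, so a sample and not a cell or a mouse is the replicate, p-values measure the spread between these pools, and the operation itself and the loss of tissue cannot be told apart.

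Cholesterol is built from acetyl-CoA in a long chain of steps. Hmgcs1 makes HMG-CoA, the precursor of mevalonate, and Idi1 and Fdps carry the isoprene units on to farnesyl diphosphate, the branch point for dolichol, ubiquinone and the lipid tails of prenylated proteins. Fdft1, Sqle and Lss then make squalene, squalene epoxide and lanosterol, and a last series of enzymes converts lanosterol to cholesterol. The genes of the pathway are under shared control by SREBP-2, the product of Srebf2, a membrane-bound transcription factor that is released when sterols in the endoplasmic reticulum are low, while Insig1 holds its escort SCAP back when sterols are plentiful. In beta cells cholesterol is a component of insulin granule membranes and of the plasma membrane where granules fuse.

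In GRCm38, the build also called mm10, RefSeq places Hmgcs1 at chr13:119690351-119708260, Idi1 at chr13:8885606-8892396, Fdps at chr3:89093588-89101967, Fdft1 at chr14:63145150-63181687, Sqle at chr15:59315092-59331193, Lss at chr10:76531565-76557139, Insig1 at chr5:28071412-28078662 and Srebf2 at chr15:82147269-82205379. Promoters were read from RefSeq on GRCm38.p6 as the 250 bases before and 50 bases after the start that its promoter table gives each gene, and 5 of the 8 genes matched, Hmgcs1, Idi1, Insig1, Lss and Srebf2. For Lss that start lies inside the gene as placed above. The 3 printed here are marked for elements often looked for in sterol genes, and that of Insig1 lacks the first of them. Capitals mark the core of the sterol regulatory element (TCACCCCA, the site of SREBP proteins), the CCAAT box (bound by NF-Y, which often acts beside SREBP and reads ATTGG on the other strand) and the E-box CACGTG, searched on both strands, and no match overlapped another.
Hmgcs1 promoter, chr13:119690101-119690400, plus strand: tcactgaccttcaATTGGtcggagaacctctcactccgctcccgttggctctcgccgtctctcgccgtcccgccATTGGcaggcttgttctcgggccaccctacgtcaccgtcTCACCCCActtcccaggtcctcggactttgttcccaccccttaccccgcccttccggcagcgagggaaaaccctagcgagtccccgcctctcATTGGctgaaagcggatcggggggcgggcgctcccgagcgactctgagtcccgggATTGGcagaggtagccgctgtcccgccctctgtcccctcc
Srebf2 promoter, chr15:82147019-82147318, plus strand: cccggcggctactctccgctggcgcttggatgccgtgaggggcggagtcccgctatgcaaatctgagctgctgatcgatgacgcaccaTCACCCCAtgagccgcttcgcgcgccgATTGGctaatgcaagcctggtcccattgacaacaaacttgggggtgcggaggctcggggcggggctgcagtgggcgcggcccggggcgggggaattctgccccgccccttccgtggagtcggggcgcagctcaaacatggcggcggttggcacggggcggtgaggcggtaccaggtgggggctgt
Insig1 promoter, chr5:28071162-28071461, plus strand: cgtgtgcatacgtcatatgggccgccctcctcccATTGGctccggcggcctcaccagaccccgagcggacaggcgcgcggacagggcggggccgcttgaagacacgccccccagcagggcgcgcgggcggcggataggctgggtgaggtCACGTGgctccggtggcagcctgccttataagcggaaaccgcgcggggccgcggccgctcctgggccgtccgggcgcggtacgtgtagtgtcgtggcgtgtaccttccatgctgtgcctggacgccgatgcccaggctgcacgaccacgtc

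TCACCCCA was present in the promoters of Hmgcs1, 137 bases before the start, and of Srebf2, 162 bases before it, and in 1.56% of all 32841 promoters of that length. The CCAAT box was present in all 5 matched promoters, 4 times in that of Hmgcs1 and 2 times in that of Idi1, and in 37.4% of all promoters. The E-box was found in that of Insig1 and in 7.15% of all promoters. A match of letters is a description of the window and not evidence of a bound site.

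Transcripts were counted as unique molecular identifiers (UMIs) at the 3' end of the message in droplets, so gene length does not enter the levels. Of the 1240 cells in the files, 1232 passed the cell filter of the study, 520 from control and 712 from PPTx samples, with 227439 to 1580152 UMIs per sample and a median of 3328 to 8677 UMIs per cell. Cells were classed by the hormone that led the others by at least 2-fold, which gave 953 beta-rich cells (insulin), 130 PP-rich cells (pancreatic polypeptide), 114 alpha-rich cells (glucagon), 13 delta-rich cells (somatostatin) and 22 mixed cells that were kept out of every class. The lead of the first hormone was between 1.5- and 3-fold in 27 cells. Levels are given as UMIs per 1000000 UMIs outside the 5 hormone genes Ins1, Ins2, Gcg, Ppy and Sst (CPM), because hormones take a large and class-specific share of the total. Other abundant peptide genes stay in that total. Pyy stood at 1972 CPM in beta-, 226040 CPM in PP- and 38479 CPM in alpha-rich cells, and Iapp at 117438, 9377 and 1969 CPM. The CPM levels, and the exact tests made on them, carry no correction for this, so PP-rich levels are lowered by Pyy and beta-rich levels by Iapp. The 8 beta-cell markers summed to 125430 CPM in beta-rich cells, 9797 CPM in PP-rich and 3213 CPM in alpha-rich cells, although Mafa had only 2 UMIs. Markers of other cells were also present in beta-rich cells, with sums per sample of 8023 to 10064 CPM for alpha, 271 to 6127 CPM for PP and 1134 to 1837 CPM for delta cells. The sums were 4.26 to 36.9 CPM for endothelial, 46.1 to 576 CPM for immune, 10.998 to 360 CPM for acinar, 345 to 728 CPM for ductal and 0 to 627 CPM for stellate cells, and Pecam1, Cdh5, Flt1 and Amy2a5 had no UMI.

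All 8 genes were scarce. Sqle had 529 UMIs in the kept cells, Hmgcs1 278, Insig1 185, Fdft1 141, Fdps 120, Lss 99, Srebf2 35 and Idi1 3, and no cell held more than 6 UMIs of any of them. Over the 8 samples, beta-rich cells held most Sqle, at 180 ± 10.05 CPM (SD, n = 8), followed by Hmgcs1 at 81.2 ± 29.1 CPM. The ranges of these 2 genes over samples did not overlap. Insig1, Fdft1, Lss and Fdps followed at 64.8, 45.4, 38.6 and 34.1 CPM, Srebf2 stood at 12.3 CPM and Idi1 at 1.95 CPM. From Hmgcs1 to Fdps in this order, the mean of each gene exceeded that of the next by less than its own SD, so neighbours are not resolved beyond the spread between samples. Genes further apart can be, since Hmgcs1 was above Fdps in 8 of 8 samples.

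Sqle encodes squalene epoxidase, one of the rate-limiting enzymes of the pathway, and its level in beta-rich cells was the most even of the 8. It was 172, 187, 164 and 180 CPM in control samples 1 to 4 and 195, 178, 189 and 175 CPM in PPTx samples 1 to 4. All samples lay within a narrow band and the groups overlapped. The coefficient of variation over the 8 samples was 5.58%, below the 15.5% that counting alone would give for its 14 to 109 UMIs per sample. Hmgcs1 varied more, at 36.9, 55.0, 83.1 and 134 CPM in controls and 76.2, 73.4, 99.6 and 92.2 CPM after PPTx. The lowest and the highest sample were both controls, and the 4 PPTx samples lay between them.

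**Figure D1:**
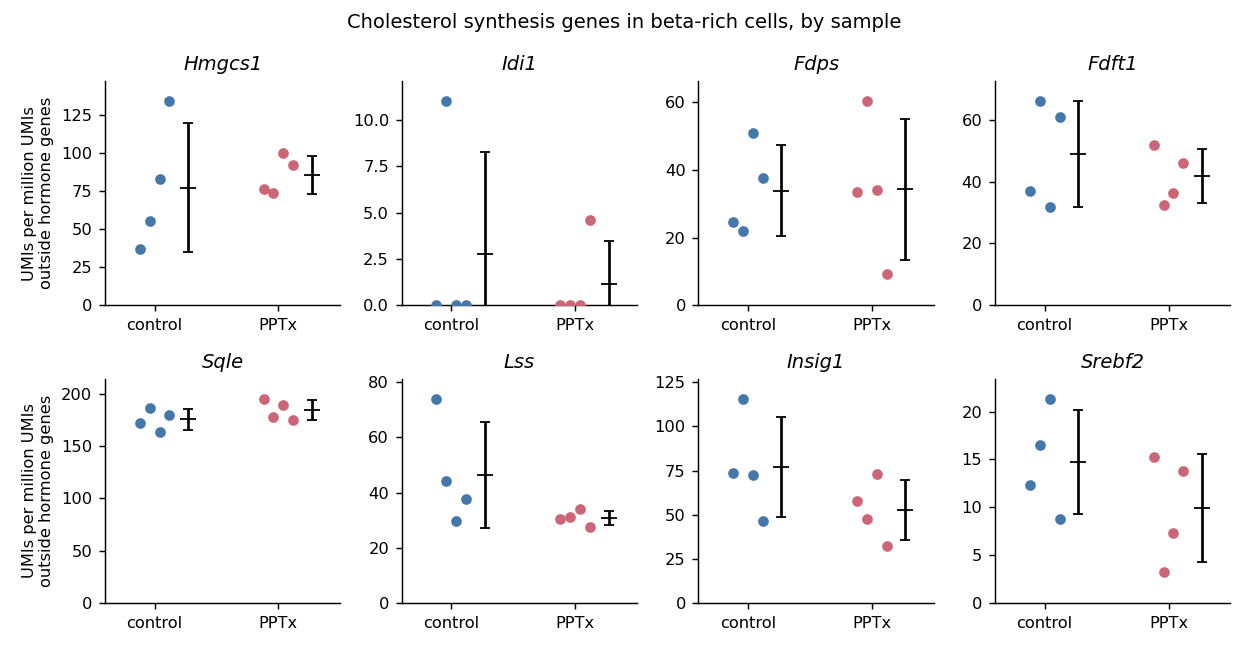
UMIs per 1000000 UMIs outside hormone genes in beta-rich cells, one panel per gene, with one point per sample and the mean with its SD beside the points (4 control and 4 PPTx samples). Sqle lay between 164 and 195 CPM in every sample, whereas Hmgcs1 spread from 36.9 to 134 CPM, and the groups overlapped in each panel.

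The coefficient of variation of Hmgcs1 was 35.9% against 22.3% from counting alone. Insig1 and Fdps likewise varied more than counting gives, at 39.2% against 26.6% and 47.7% against 32.7%, whereas Fdft1, Lss and Srebf2 lay close to or below it, at 28.9% against 31.8%, 39.4% against 35.6% and 46.5% against 61.7%. The chi-square over samples, divided by its degrees of freedom, was 2.26 for Hmgcs1, 2.43 for Insig1 and 2.21 for Fdps, and 0.201 for Sqle, where a value of about 1.0 is what counting error alone gives. These values describe the 8 samples, which differ in depth and in group, and no test was made on them.

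**Figure D2:**
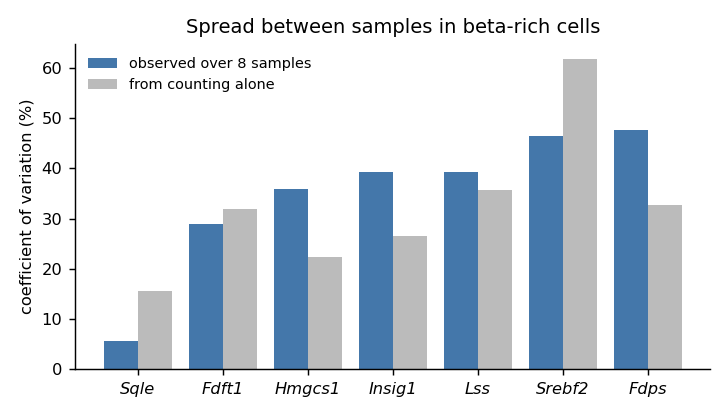
Coefficient of variation of the level over 8 samples in beta-rich cells (percent, vertical axis) for 7 genes, beside the value that Poisson counting of the UMIs alone would give; Idi1, with 3 UMIs, is left out. Sqle varied by 5.58% against 15.5% from counting, and Hmgcs1, Insig1 and Fdps varied more than counting gives.

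The first comparison asked which of the genes differed between the endocrine cell types of the same islets. Sqle was higher in beta-rich than in PP-rich cells in each of the 7 samples with at least 5 cells of both, and higher than in alpha-rich cells in each of 6 samples, by 1.99-fold and 3.78-fold in the fits. In PP-rich cells Sqle stood at 65.3, 73.0 and 45.1 CPM in control samples 2 to 4 and at 43.3, 112, 91.0 and 81.7 CPM in PPTx samples 1 to 4. No PP-rich value reached the lowest beta-rich value of 164 CPM. In alpha-rich cells it was 0, 101, 48.0 and 37.6 CPM in control samples 1 to 4, and 0 and 42.0 CPM in PPTx samples 2 and 3, again below every beta-rich value. The means were 181 CPM in beta-rich against 73.1 CPM in PP-rich cells (n = 7), and 178 against 38.2 CPM in alpha-rich cells (n = 6).

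By the quasi-likelihood test of edgeR, blocked by sample and with Benjamini-Hochberg adjustment over all tested genes, the log2 fold change of Sqle was 0.99 (SE 0.29, adjusted p = 0.00434) against PP-rich cells and 1.92 (SE 0.42, adjusted p = 3.70e-05) against alpha-rich cells. Calls were common in these comparisons, at 31.0% of all 2941 genes tested between beta- and PP-rich cells and 38.9% of 1988 between beta- and alpha-rich cells. Only Sqle and Hmgcs1 passed the filter on low counts against PP-rich cells, and only Sqle against alpha-rich cells. Sqle passed mainly through its beta-rich counts, 14 to 109 UMIs per sample against 0 to 6 in alpha-rich cells, so the number of members called is not a result about them. Over the alternatives in which Sqle could be tested, all but thinned cells, the call was kept and the adjusted p ranged from 0.000107 to 0.0317 against PP-rich and from 6.60e-06 to 0.000785 against alpha-rich cells. With hormone genes left out of the library size and no TMM scaling the median log2 fold change of all genes against PP-rich cells moved from 0.01 to 0.25, the calls from 479 higher and 434 lower in beta-rich cells to 777 and 259, and Sqle to 1.23. Transcripts of beta cells were also seen in the other classes. Ins1 stood at 1.22% and the sum of the 8 beta-cell markers, most of it Iapp, at 7.81% of their beta-rich level in PP-rich cells, where Sqle stood at 43.7%. In alpha-rich cells the values were 0.913%, 2.56% and 23.4%. Single markers differed. Ucn3 stood at 1278 CPM in beta- and 13.5 CPM in PP-rich cells, Nkx6-1 at 311 and 78.6 CPM. Slc30a8 stood at 1056 CPM in beta- and 1000 CPM in alpha-rich cells. The part of carried-over RNA in the levels of Sqle was not tested.

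Hmgcs1, an early enzyme of the pathway, had the same order against alpha-rich cells but not against PP-rich cells. In PP-rich cells it stood at 0, 0 and 113 CPM in control samples 2 to 4 and at 57.7, 51.9, 200 and 163 CPM in PPTx samples 1 to 4, so that both the lowest and the highest values were found in this class. Its log2 fold change between beta- and PP-rich cells was -0.17 (SE 0.33, adjusted p = 0.746, edgeR), and the sign changed with the scaling, to 0.075 without TMM scaling and with hormone genes left out of the library size. Against alpha-rich cells Hmgcs1 did not pass the filter. Its levels there, 0, 50.7, 48.0 and 56.4 CPM in control samples 1 to 4, and 0 and 42.0 CPM in PPTx samples 2 and 3, were below those of beta-rich cells of the same sample in 6 of 6 samples.

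The 7 members left out by the filter between beta- and alpha-rich cells, and the 6 left out between beta- and PP-rich cells, were compared one by one with exact two-sided sign flips over samples, with no adjustment for the number of tests. With 6 samples the smallest p is 0.03125, and Hmgcs1 (80.3 against 32.9 CPM), Lss (41.7 against 2.67 CPM) and Srebf2 (11.6 against 1.33 CPM) reached it, each higher in beta-rich cells in 6 of 6 samples by the exact test. For Srebf2 and Lss this order is not informative in most samples. The alpha-rich class held 11 UMIs of Hmgcs1 in these samples, but 2 of Lss and 1 of Srebf2, all in control sample 3, and in the other samples its depth was too low to expect a UMI at the beta-rich level of Srebf2. Pooled over all samples, Srebf2 was 11.3 CPM in beta-rich (95% exact Poisson interval 7.65 to 16.2, counting error only) and 3.83 CPM in alpha-rich cells (0.097 to 21.3), where 3 counts stand for 11.5 CPM, so a difference was not detectable at this depth. With a margin of 1 between hormones its exact p was 0.656. For Lss the pooled levels were 34.0 CPM (27.3 to 41.8) and 7.66 CPM (0.928 to 27.7), and these intervals overlap. Those of Hmgcs1, 86.5 CPM (75.7 to 98.5) and 46.0 CPM (23.7 to 80.3), overlap as well. Insig1 was higher in beta-rich cells in 5 of 6 samples, at 71.4 against 22.4 CPM (exact p = 0.0625).

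Against PP-rich cells Insig1 stood at 63.5 against 32.5 CPM and was higher in beta-rich cells in 6 of 7 samples (exact p = 0.0469, with 0.0156 the smallest p possible). This p rose to 0.0625 with a margin of 4 between hormones and to 0.281 with all cells thinned to 2000 UMIs. Leaving out any sample but PPTx 2 raised it to between 0.0625 and 0.0938. Lss was 33.5 against 23.4 CPM (exact p = 0.328), Fdps 35.4 against 16.9 CPM (exact p = 0.203) and Srebf2 12.3 against 6.52 CPM (exact p = 0.25), and none of these differences was resolved. The p of Lss fell to 0.0312 without control sample 3, in which 2 UMIs gave its highest PP-rich level, 73.0 CPM.

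For Fdft1 and Fdps, the enzymes on either side of farnesyl diphosphate, no difference from alpha-rich cells was resolved. Fdft1 was 44.2 CPM in beta-rich and 43.2 CPM in alpha-rich cells (difference 0.91 ± 14.7 CPM, SE, n = 6, exact p = 0.969), and was higher in beta-rich cells in 3 of 6 samples. Against PP-rich cells it was 46.5 against 25.5 CPM (exact p = 0.109), a difference that changed sign in thinned cells. Fdps was 38.3 against 32.9 CPM in alpha-rich cells (exact p = 0.906), a mean that rests on 124 CPM in control sample 1, where it stands for 1 UMI. Idi1 was seen 3 times, in beta-rich cells only, and the 0 UMIs in PP- and alpha-rich cells allow levels of up to 8.13 and 11.5 CPM at 3 counts, above its beta-rich level, so a difference was not detectable at this depth.

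**Figure D3:**
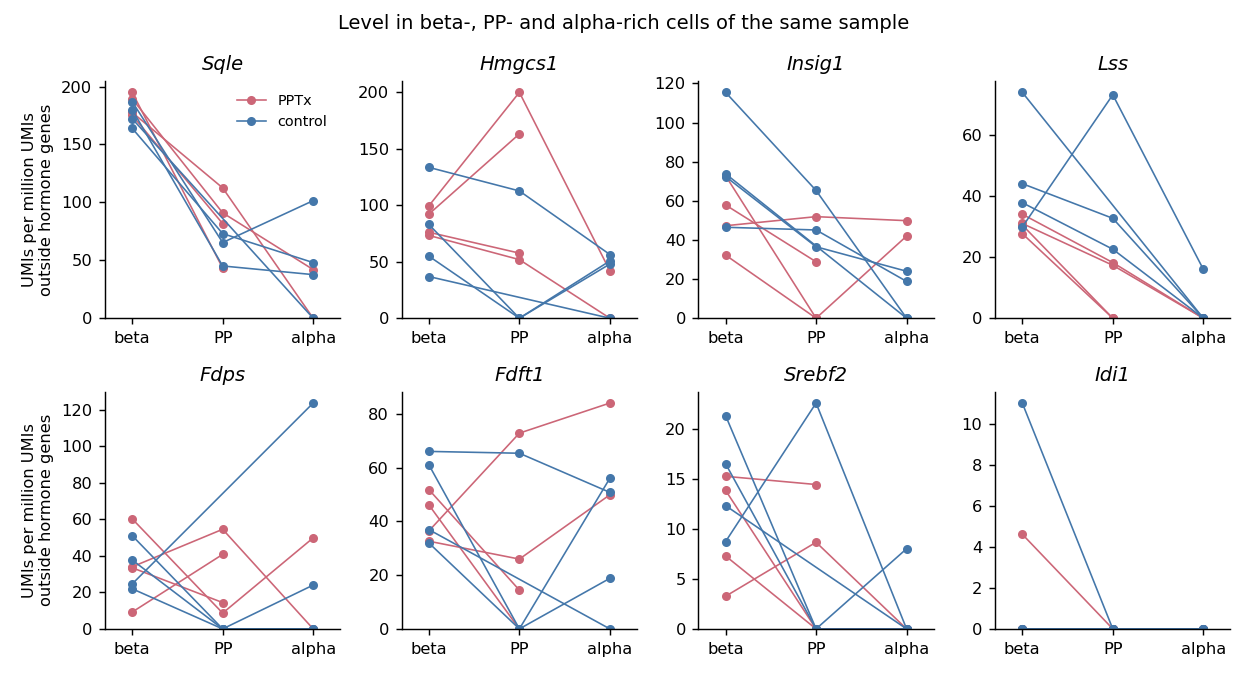
UMIs per 1000000 UMIs outside hormone genes in beta-, PP- and alpha-rich cells, one panel per gene, with lines that join the classes of one sample (blue control, red PPTx); a class with under 5 cells in a sample has no point. Every line of Sqle falls from its beta-rich level of 164 to 195 CPM, while those of Fdft1, Fdps and Hmgcs1 cross.

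Delta-rich cells were not tested, since no sample reached the minimum of 5 cells set for a class. Their 13 cells gave 3 UMIs of Sqle, all in 1 cell, 1 of Insig1 and 1 of Fdft1, and the 0 UMIs of each other member allow levels of up to 118 CPM.

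The share of cells with a UMI followed the levels for Sqle. With each cell thinned to 2000 UMIs, Sqle was found in 13.3% of the 953 beta-rich cells (95% exact binomial interval 11.2% to 15.7%), in 6.92% of PP-rich cells (3.21% to 12.7%) and in 5.26% of alpha-rich cells (1.96% to 11.1%). The intervals of beta- and PP-rich cells overlap. Hormone transcripts count towards the 2000 UMIs and, over all samples, took the largest share in beta-rich cells. Thinning therefore left beta-rich cells with the lowest depth outside hormones and did not make the classes equal in it. Before thinning the shares were 36.2%, 16.9% and 8.77%, with median depths of 6061, 5206 and 3962.5 UMIs per cell. Hmgcs1 was found in 6.72% of thinned beta-rich cells and 10% of PP-rich cells (5.43% to 16.5%), and these intervals overlap. No class of islet cell is known to lack these housekeeping enzymes, so a share that is background alone could not be set, and the intervals cover counting error only.

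The second comparison asked whether 50% PPTx changed the genes in beta-rich cells. None of the 6 members that passed the filter was called, against 0.288% of all 5911 genes tested, and Idi1 and Srebf2 did not pass. At an unadjusted p under 0.05 none of the 6 was past the threshold either, against 558 of all genes tested, and none was called by DESeq2. The log2 fold changes after PPTx were 0.11 (SE 0.18) for Sqle, -0.02 (SE 0.27) for Hmgcs1, 0.04 (SE 0.38) for Fdps, -0.23 (SE 0.32) for Fdft1, -0.30 (SE 0.33) for Lss and -0.40 (SE 0.30) for Insig1, with adjusted p from 0.717 to 0.996 in edgeR. The median of the 6 was -0.13, against -0.01 over all genes. The sign of Hmgcs1 and of Fdps changed with samples left out. Without 1 sample Fdft1 ranged from -0.49 to -0.029, Lss from -0.52 to -0.16, Insig1 from -0.62 to -0.17 and Sqle from 0.069 to 0.15.

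Insig1, the sterol sensor's anchor, stood at 73.8, 115, 72.4 and 46.5 CPM in control samples and at 57.9, 47.3, 72.9 and 32.3 CPM after PPTx. The groups overlapped, since 3 of the 4 PPTx samples lay above the lowest control. Lss, lanosterol synthase, was 73.8, 44.0, 29.8 and 37.8 CPM in controls and 30.5, 31.0, 34.0 and 27.7 CPM after PPTx. All 4 PPTx samples lay in a narrow band near the lowest control. Fdft1, squalene synthase, was 36.9, 66.0, 31.9 and 61.0 CPM in controls and 51.8, 32.6, 36.4 and 46.1 CPM after PPTx. Fdps was 24.6, 22.0, 51.1 and 37.8 CPM in controls against 33.5, 60.3, 34.0 and 9.22 CPM after PPTx, where the highest and the lowest of the 8 values were both PPTx samples. Srebf2, the transcription factor, was 12.3, 16.5, 21.3 and 8.72 CPM in controls and 15.2, 3.26, 7.29 and 13.8 CPM after PPTx, an overlap with an exact permutation p of 0.286 and 1 to 10 UMIs per sample. Idi1 had 2 UMIs in control sample 2 and 1 in PPTx sample 4.

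All 8 members together took 431, 517, 454 and 506 CPM in the beta-rich cells of controls and 460, 425, 474 and 401 CPM after PPTx. The 2 groups overlapped, with the highest value in control sample 2 and the lowest in PPTx sample 4. Markers of PP cells summed to 271 to 1979 CPM in the beta-rich cells of controls and to 2199 to 6127 CPM after PPTx, and their part in these values was not tested.

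In non-beta cells, that is PP-, alpha- and delta-rich cells together, no member passed the filter, and 0.764% of the 1440 genes tested were called. Exact permutation of the group labels was therefore used for the 7 members with a UMI, and with 4 against 4 samples the smallest two-sided p is 0.0286. Sqle stood at 0, 70.9, 51.3 and 38.3 CPM in controls and at 74.3, 95.9, 73.1 and 75.6 CPM after PPTx. The groups did not overlap, with means of 40.1 and 79.7 CPM (exact p = 0.0286, not adjusted for 7 genes), although the gap between the nearest samples was 70.9 to 73.1 CPM and each level rested on 0 to 13 UMIs. The p was 0.0571 without any one PPTx sample or with a margin of 1, and 0.0857 in thinned cells. Paired by replicate number, Sqle was higher after PPTx in 4 of 4 pairs (exact two-sided sign flips, p = 0.125, the smallest possible). Without control sample 1, whose 10 non-beta cells held no UMI of Sqle, the difference fell from 39.6 to 26.2 CPM.

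The make-up of these cells differed between the groups. PP-rich cells made up 12.9% to 39.1% of non-beta cells in controls and 69.0% to 94.1% after PPTx, and alpha-rich cells 47.8% to 83.9% and 5.88% to 24.1%. Sqle was 73.1 CPM in PP-rich and 38.2 CPM in alpha-rich cells over the samples. Within PP-rich cells alone it was 61.2 ± 14.4 CPM in 3 control samples and 82.1 ± 28.9 CPM in 4 PPTx samples (SD), and these overlapped. Acinar markers summed to 0 to 17.7 CPM in the non-beta cells of controls and to 60.9 to 265 CPM after PPTx, and delta markers to 1225 to 1938 and 533 to 926 CPM. The part of this make-up and of these markers in the difference of Sqle was not tested.

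Hmgcs1 stood at 0, 17.7, 38.5 and 76.6 CPM in the non-beta cells of controls and at 61.9, 44.2, 146 and 151 CPM after PPTx, with 1 control above 2 PPTx samples (means 33.2 and 101 CPM, exact permutation p = 0.114). Paired by replicate number, Hmgcs1 was higher after PPTx in 4 of 4 pairs (exact two-sided sign flips, p = 0.125, the smallest possible). Within PP-rich cells alone it was 37.6 ± 65.1 CPM in 3 control and 118 ± 74.8 CPM in 4 PPTx samples, with overlap. For the other members, Insig1 was 26.9 CPM in control and 22.1 CPM in PPTx samples, Fdps 22.8 and 28.5 CPM, Fdft1 65.2 and 38.2 CPM, Lss 13.2 and 6.73 CPM and Srebf2 3.997 and 4.94 CPM, with exact permutation p from 0.4 to 0.829. The control level of Fdft1 rests on 144 CPM in control sample 1, which stands for 2 UMIs in 10 cells, and without that sample the difference went from -27.0 to -0.88 CPM.

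**Figure D4:**
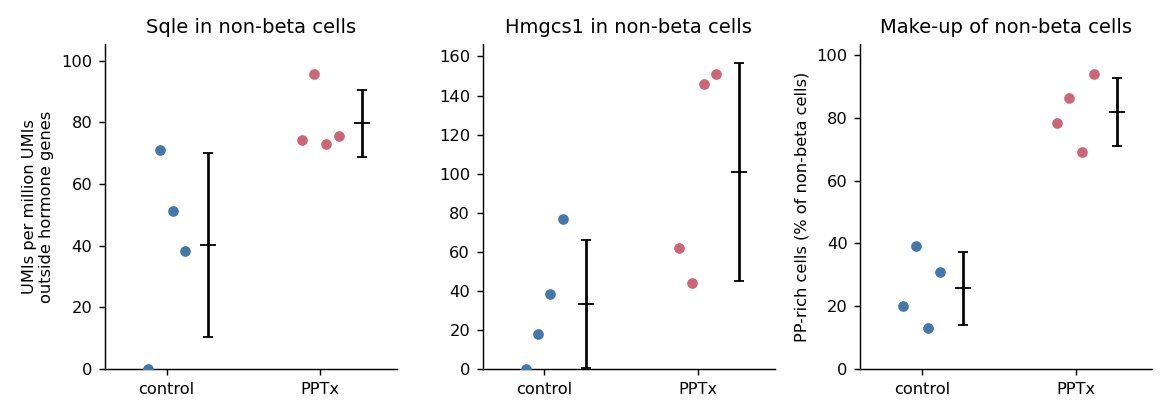
Levels of Sqle and Hmgcs1 in non-beta cells (UMIs per 1000000 UMIs outside hormone genes) and the share of PP-rich cells among non-beta cells (percent), with one point per sample and the mean with its SD, for 4 control and 4 PPTx samples. The Sqle values after PPTx, 73.1 to 95.9 CPM, lay above all controls, and so did the share of PP-rich cells, 69.0% to 94.1%.

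Whether the effect of PPTx differed between beta-rich and non-beta cells was tested as an interaction over sums of the same 8 samples, with the sample as a block. Neither of the 2 members that passed the filter was called, against 0.222% of 3602 genes tested. The interaction was -1.10 on the log2 scale for Hmgcs1 (SE 0.56, unadjusted p = 0.0528, adjusted p = 0.604, edgeR), that is a lower PPTx effect in beta-rich cells, and -0.72 for Sqle (SE 0.51, adjusted p = 0.789). The difference between the beta-rich and the non-beta level of Hmgcs1 averaged 44.0 CPM in controls and -15.6 CPM after PPTx (n = 4 samples each), and it rests on the same non-beta cells whose make-up differed.

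The third comparison concerned the 41 beta-rich cells with at least 2 UMIs of 10 proliferation genes. In the 6 samples with at least 3 such cells they were compared with the other beta-rich cells of the same sample. None of the 2 members that passed the filter was called, against 5.40% of 2649 genes tested. Sqle was 55.7 and 190 CPM in the cells with proliferation transcripts of control samples 3 and 4 and 87.9, 242, 86.1 and 194 CPM in those of PPTx samples 1 to 4. It was above the other beta-rich cells in 3 of 6 samples, with means of 143 and 183 CPM and a log2 fold change of -0.41 (SE 0.40, adjusted p = 0.685, edgeR), which was -1.001 without PPTx sample 2. Hmgcs1 was 55.7 and 95.1 CPM in the controls and 176, 88.1, 143 and 0 CPM after PPTx, with a log2 fold change of 0.30 (SE 0.47, adjusted p = 0.83).

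Insig1 had no UMI in the cells with proliferation transcripts of 4 of the 6 samples. It averaged 23.6 CPM there against 56.5 CPM in other beta-rich cells and was lower in 5 of 6 samples (exact sign flips, p = 0.0625), from 4 UMIs in all. The sign of this difference changed in thinned cells. Fdft1 was higher in 5 of 6 samples, at 160 against 40.0 CPM (exact p = 0.188), where PPTx sample 4 with 3 UMIs set the highest value, 583 CPM. Without 1 sample the difference of Fdft1 ranged from 33.8 to 155 CPM, and in thinned cells it changed sign. The remaining members, Fdps, Lss, Srebf2 and Idi1, had exact p from 0.344 to 1.0.

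The other genes of the pathway were taken from lists written for this purpose with earlier results of these data known. Of 16 other enzymes of cholesterol synthesis, 8 passed the filter in the beta-rich comparison of PPTx with control. Their median log2 fold change was 0.01, and none was called, against 0.288% of all 5911 genes tested. At that share no call is the usual outcome for so few genes, so it is not a result about this list or those below. Among the most abundant of these enzymes were Msmo1, a methyl sterol oxidase, and Ebp, a sterol isomerase. Their log2 fold changes after PPTx were -0.14 (SE 0.21) and 0.27 (SE 0.25), neither past the threshold. Msmo1 was higher in beta-rich than in alpha-rich cells (log2 1.39, SE 0.42, adjusted p = 0.00327, edgeR), at 134 ± 24.7 CPM in beta-rich (n = 8) and 63.4 ± 43.8 CPM in alpha-rich cells (n = 6, 13 UMIs in all), and its difference from PP-rich cells of 0.73 was not called (SE 0.33, adjusted p = 0.0761).

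Of 10 genes of sterol sensing and SREBP control, 9 passed in the PPTx comparison of beta-rich cells. None was called, against 0.288% of all genes tested. Mbtps1, the first protease that cuts SREBP, had a log2 fold change of -0.70 (SE 0.22, adjusted p = 0.251, edgeR), and Srebf1, which encodes SREBP-1, of -0.30 (SE 0.22, adjusted p = 0.712). Of this list, 6 genes were tested against PP-rich and 3 against alpha-rich cells. None was called, where 31.0% and 38.9% of all genes tested were called. Of 14 genes of sterol uptake, transport and efflux, 7 passed and none was called after PPTx, against 0.288% of all genes tested. Apoe, a lipoprotein gene also made by macrophages, had a log2 fold change of 1.498 (SE 0.77, adjusted p = 0.566, edgeR) and ranged from 0 to 731 CPM between samples in beta-rich cells.

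Npc2, which hands cholesterol out of lysosomes, was lower in beta-rich than in PP-rich (log2 -0.74, SE 0.16, adjusted p = 6.25e-05) and alpha-rich cells (-1.18, SE 0.18, adjusted p = 5.64e-10). It stood at 364 ± 67.3 CPM in beta-, 502 ± 143 CPM in PP- and 815 ± 303 CPM in alpha-rich cells. Osbp, an oxysterol-binding carrier, was higher in beta- than in PP-rich cells (0.91, SE 0.33, adjusted p = 0.0242), at 137 against 72.2 CPM, a call that DESeq2 did not make (adjusted p = 0.0882). Of the 5 genes of this list tested against PP-rich cells, 1 was therefore called in each direction, where 31.0% of all genes tested were called. Against alpha-rich cells 1 of 4 was called, where 38.9% of all genes tested were. With so few genes tested, these counts are not a result about the list.

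Of 13 fatty acid genes under SREBP-1, 7 passed in the PPTx comparison of beta-rich cells and none was called, against 0.288% of all genes tested. Between classes, 3 of the 4 tested against PP-rich cells and 2 of the 3 tested against alpha-rich cells were called, all higher in beta-rich cells. There 31.0% and 38.9% of all genes tested were called. With so few genes tested, these counts are not a result about the list. Acly, which makes the cytosolic acetyl-CoA used by both pathways, was the most abundant, at 1450 ± 119 CPM in beta-, 533 ± 204 CPM in PP- and 615 ± 264 CPM in alpha-rich cells, with log2 fold changes of 1.17 (SE 0.15) and 1.31 (SE 0.17). Elovl5, a fatty acid elongase, stood at 149, 40.2 and 32.1 CPM in the same order, with 1.47 (SE 0.35) and 2.89 (SE 0.52), from 16 UMIs in PP- and 5 in alpha-rich cells. Scd2, a desaturase, was called against PP-rich cells only (0.82, SE 0.26, adjusted p = 0.00868), and whether its difference from alpha-rich cells was smaller was not tested.

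Of 10 genes that use isoprenoids, 4 were tested against PP-rich and 3 against alpha-rich cells, and 2 were called in each, again against 31.0% and 38.9% of all genes. These were Dhdds and Nus1, the 2 subunits of the enzyme that builds dolichol from farnesyl diphosphate, both higher in beta-rich cells. Dhdds stood at 196 CPM in beta-, 72.0 CPM in PP- and 85.8 CPM in alpha-rich cells (log2 1.01, SE 0.28, and 1.24, SE 0.34). Nus1 stood at 177, 79.6 and 80.4 CPM (0.81, SE 0.29, and 0.83, SE 0.34), and DESeq2 did not make the second call (adjusted p = 0.0527). Apart from Acly and Npc2, the genes called in these lists had 5 to 39 UMIs in the PP- or alpha-rich class compared and, like Sqle, passed the filter mainly through their beta-rich counts. The direction of each gene called in these lists was the same with hormone genes left out of the library size and in DESeq2. Rabggtb, a subunit of the enzyme that prenylates Rab proteins, was not called in either contrast, with log2 fold changes of -0.34 (SE 0.25) and -0.22 (SE 0.31), nor was Fnta, a subunit of protein prenyltransferases, against PP-rich cells (-0.56, SE 0.35). In the PPTx comparison of beta-rich cells 6 of the 10 passed and none was called, against 0.288% of all genes tested. In non-beta cells 0 to 2 genes of each of the 5 lists passed the filter, in the interaction 4 to 7 and in cells with proliferation transcripts 3 to 5. None of these was called, against 0.764%, 0.222% and 5.40% of all genes tested. With so few genes tested, this is not a result about the lists.

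**Figure D5:**
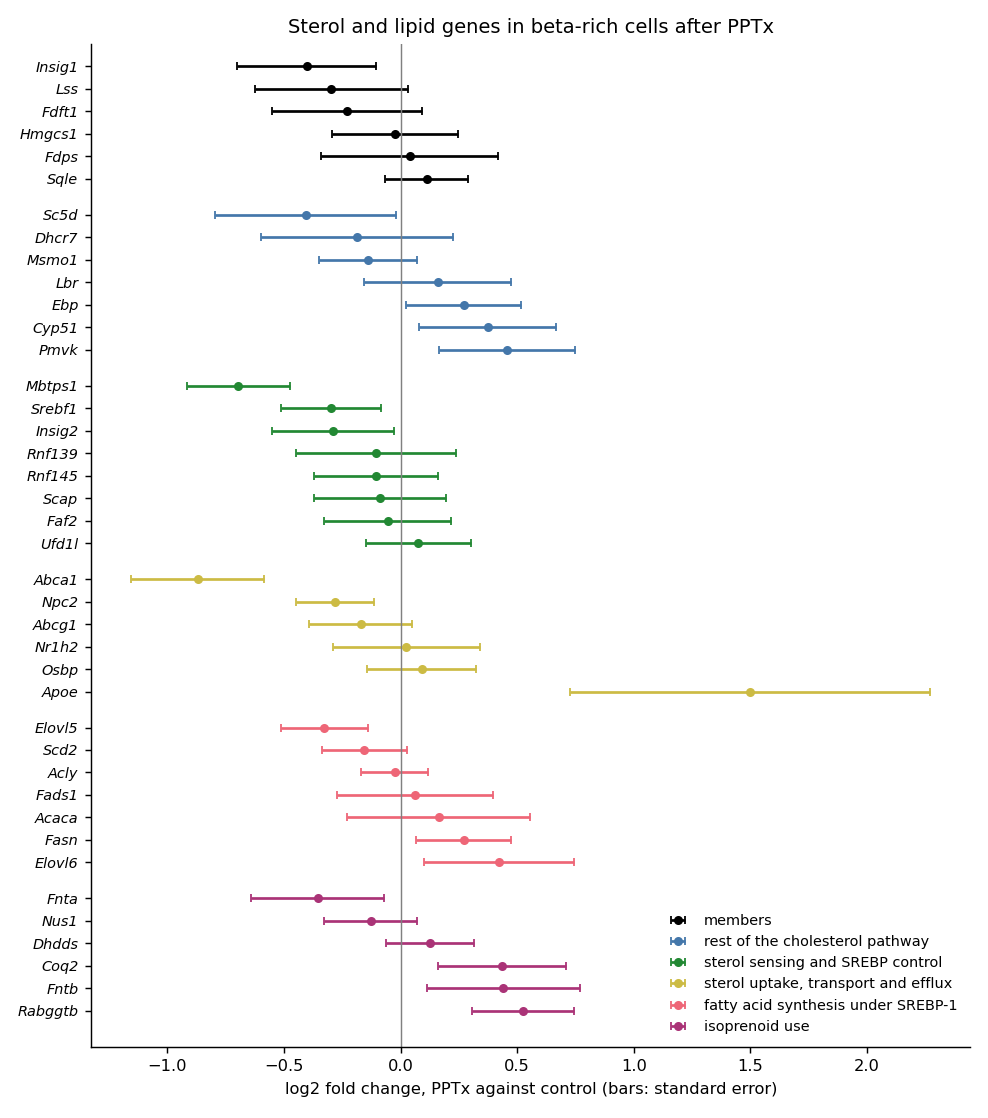
Log2 fold change after PPTx in beta-rich cells (horizontal axis, points with standard errors) for the members and the genes of 5 related lists that passed the filter and are reported here, each list in its own colour. None was called, against 0.288% of all genes tested. The members lie between -0.40 and 0.11, and Apoe, at 1.498, has the widest error.

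Few beta-rich cells held more than 1 member. After thinning, 669 of the 953 cells held no UMI of any member, 236 held 1 member, 40 held 2, 8 held 3 and none held more. Pairs of members in the same cell numbered 64, against 46.9 from the shares within each sample, a ratio of 1.36. Hmgcs1 and Insig1 met in 8 cells against 3.64, Sqle and Insig1 in 11 against 6.85, and Hmgcs1 and Sqle in 12 against 8.52, whereas Sqle and Lss met in 1 cell against 3.81. These counts are small and serve as a description.

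The levels were also compared between deep and shallow cells. When the beta-rich cells of each sample were split at their median depth, Sqle was 184 CPM in the cells below and 178 CPM in the cells above the median, and higher in the deeper cells in 4 of 8 samples. Hmgcs1 was 85.6 and 78.7 CPM, higher in the deeper cells in 3 of 8, and Insig1 76.5 and 57.6 CPM, in 2 of 8.

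Across the 8 samples, the genes whose level in beta-rich cells most resembled the sum of the members were Slc2a2, the glucose transporter GLUT2, with Pearson's r of 0.969, Smarca2, a chromatin remodeller, with 0.963, Ky with 0.953, Sptssa, a small subunit of serine palmitoyltransferase, with 0.949, and Rnf2, a Polycomb ubiquitin ligase, with 0.937. The r was computed on log2(CPM + 1) as deviations from the group mean, over 3960 genes of at least 50 CPM. The points share libraries and depth, and high values of r are common among so many genes over 8 samples, so these names are a description.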

How the data were processed

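Islet cells of 8 samples were read in droplets. The methods and the labels name the ddSEQ system, while the labels also name a Chromium library kit. The authors aligned reads to mm10 and deposited raw UMI counts per gene symbol and cell, which were counted by Cell Ranger per the methods. Filtering in the same pipeline is stated without its criteria, and 1 barcode occurred in more than 1 sample. The filter of the study, 100 to 3000 genes and 100 to 20000 UMIs in a cell, left out 8 cells. No doublet caller was run. Counts were summed per sample and hormone class, with at least 5 cells, and the main test was the quasi-likelihood test of edgeR 4.0.16 after filterByExpr and TMM scaling (adjusted p of 0.05), with DESeq2 1.42.0 as an alternative, in R 4.3.3. Genes below the filter were compared by exact two-sided permutation or sign flips of CPM in Python 3.11.15. All members are named, and of each related list the called genes and the 3 with most UMIs, apart from some genes that are not reported here but are included in the counts. The members and lists were chosen with earlier results of these data known.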

Additional observations from a re-analysis of the deposited data

Results flagged for a closer look

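In non-beta cells, the level of Sqle in PPTx sample 2, 95.9 CPM, stood apart from the other 3 PPTx samples (73.1 to 75.6 CPM) by more than Dixon's criterion allows for 4 values; 25 groups of values were examined this way, and chance alone passes about 1 in 20.

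Cells left out of the main comparisons also held the transcripts. The 22 cells with mixed hormones held 10 UMIs of Sqle (169 CPM) and 7 of Hmgcs1 (118 CPM), against 50.6 CPM for 3 counts. The 8 cells outside the limits on genes and UMIs held 17 UMIs of Hmgcs1 (265 CPM), 15 of Sqle (234 CPM) and 8 of Fdft1 (125 CPM).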

How the results depend on the processing

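Depth limits these results: in the fits as designed Idi1 and Srebf2 passed the filter in no comparison, and no member passed it in non-beta cells. No member was called by edgeR or DESeq2 between PPTx and control in beta-rich cells under any alternative. In non-beta cells members were tested by edgeR only without a filter, where none of 7 was called, against 8 of all 12324 genes tested. Sqle stayed higher in beta-rich cells in each alternative in which it passed the filter. Without a filter 3 members, Sqle, Insig1 and Lss, were called against alpha-rich cells. In that setting 1272 of all 14007 genes tested were called, 990 of them higher in beta-rich cells, and the median log2 fold change of all genes was 0.49. In thinned cells no member passed the filter against PP- or alpha-rich cells, and delta-rich cells were not tested. The cause was not tested for any change below, apart from the number of genes tested without a filter or in thinned cells.

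Counts of called genes moved as follows. PPTx against control in beta-rich cells, 17, became 27 with DESeq2 (20 higher and 7 lower, against 10 and 7), 90 without a filter (72 and 18), 10 in thinned cells (7 and 3), and 1 to 18 without 1 sample (1 without control 1 or PPTx 1, 2 without control 2, 10 without control 4). Beta- against PP-rich cells, 913 with 479 higher and 434 lower, became 1546 without a filter (1205 and 341) and 278 thinned. Beta- against alpha-rich cells, 773 with 430 higher and 343 lower, became 1272 without a filter (990 and 282), 306 thinned and 449 to 871 without 1 sample (449 without control 3), and DESeq2 moved the median log2 fold change of all genes there from 0.05 to 0.18. PPTx in non-beta cells, 11, became 6 with margin 1 and 4 to 31 without 1 sample (4 without control 3, 31 without PPTx 3, 7 without control 1, PPTx 1 or PPTx 2), and DESeq2 split 13 as 5 higher and 8 lower against 2 and 9. The interaction, 8 with 6 higher and 2 lower, became 1 with DESeq2, 16 without hormone genes in the library size (14 and 2), 4 without a filter, 4 thinned, 4 with all deposited cells, and 3 to 13 without 1 sample (3 without control 3 or PPTx 2, 13 without control 4). Cells with proliferation transcripts, 143 with 100 higher and 43 lower, became 92 with DESeq2 (75 and 17), 519 without a filter (185 and 334, so that most were lower) and 23 thinned (11 and 12).

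Several differences changed sign, among them some that were not near 0. After PPTx in beta-rich cells Hmgcs1 became 0.00190 without a filter and ranged from -0.15 to 0.37 without 1 sample, Fdps became -0.044 with all deposited cells and ranged from -0.43 to 0.36, and the CPM difference of Idi1 became 2.27 thinned and ranged from -2.75 to 1.15. Against PP-rich cells Hmgcs1 became 0.22 without a filter and 0.075 without hormone genes in the library size, and ranged from -0.32 to 0.24, and Fdft1 became -9.91 CPM thinned. Against alpha-rich cells Fdft1 became -14.8 CPM thinned and ranged from -7.35 to 10.6, and Fdps from -1.12 to 26.3. In non-beta cells Insig1 ranged from -14.6 to 4.02 CPM, Fdps from -1.87 to 22.1 and Srebf2 from -1.54 to 2.80. In cells with proliferation transcripts Hmgcs1 became -0.24 without a filter, Insig1 31.4 CPM and Fdft1 -17.8 CPM thinned, Lss 0.630 CPM with all deposited cells and -16.2 to 3.06 without 1 sample, and Fdps ranged from -2.60 to 29.3.

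Control and PPTx samples share replicate numbers, but the labels tie them to no batch. Deviations of same-numbered samples correlated at 0.153, 0.0809, 0.124 and 0.267 over 2787 genes, and every sample correlated best with its own number. With a replicate block 33 genes were called in beta-rich cells in place of 17, no member among them, and Hmgcs1 became 0.16 and Fdps -0.075. In non-beta cells the block gave 8 called genes in place of 11. There Sqle and Hmgcs1 were each higher after PPTx in 4 of 4 same-numbered samples (exact two-sided sign flips, p = 0.125, the smallest that 4 pairs allow).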
